A study of Mus musculus with 20 samples.

Results

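The regions described here are the stretches of open chromatin that were listed in 3T3-L1 cells before adipocyte differentiation (day 0), at its last sampled time (day 6), or at both. 3T3-L1 is a mouse cell line of committed preadipocytes that turns into fat-storing adipocytes under a hormone cocktail. DHS-seq sequences the DNA around sites where lightly applied DNase I cuts nuclear chromatin, here as small fragments released by a pair of cuts. Peaks of the day 0 list and the day 6 list were joined into one region when they overlapped by at least 1 bp. This gave 14661 regions of the 46760 that all 6 DHS-seq lists make together. Of the 14661, 7130 held peaks of both days (48.6%), 2833 held a day 0 peak only (19.3%) and 4698 held a day 6 peak only (32.0%). The other 32525 regions of the series were listed only at the times between.

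Day 0 cells were preadipocytes sampled 2 days after reaching confluence and before any inducer was added. Day 6 cells, labelled as mature adipocytes, had been induced in fetal bovine serum with 3-isobutyl-1-methylxanthine, which blocks phosphodiesterases, with the glucocorticoid dexamethasone and with insulin. From day 2 their medium held serum with insulin, and afterwards serum alone. The lists between were made at 2 hours, 4 hours, day 1 and day 2 of the same course. All groups came from this 1 cell line, and each had 1 library. Peak lists carry no expression values, so the labelled cell stages could not be checked against marker genes. The labels do not say what share of the day 6 cells had become adipocytes, and a site open in fewer cells cannot be told apart from a site less open in each cell.

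Open chromatin marks promoters and enhancers, where the DNA is left accessible to regulatory proteins. In adipogenesis, C/EBPbeta and C/EBPdelta are transcription factors active early. The glucocorticoid receptor (GR) answers dexamethasone, Stat5a relays hormone and cytokine signals, and RXR is the partner with which nuclear receptors such as PPARgamma bind DNA. PPARgamma drives the adipocyte gene programme and is needed for fat cells to form, and RNA polymerase II (RNA Pol II) gathers at promoters and over transcribed genes. PPARgamma was mapped on day 2 and day 6 only, C/EBPbeta on day 0, at 2 hours, at 4 hours and on day 2, C/EBPdelta and RNA Pol II on day 0 and at 4 hours, and GR, Stat5a and RXR at 4 hours.

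A region counts as bound when a ChIP-seq peak overlaps it by at least 1 bp. With 1 library a time, no difference could be tested against replicate spread and none is called significant. Shares carry exact Clopper-Pearson 95% intervals, and differences between shares carry Wald 95% intervals. Both cover counting over regions in these libraries only. The deposited lists hold positions without scores, so read depth is unknown. The 2 endpoint lists were of similar length, with 9989 peaks on day 0 and 11936 on day 6. The lists at 4 hours, day 1 and day 2 were longer, with 31751, 35389 and 25097 peaks, whereas the 2 hours list had 9055. The shares of different classes in the same list can therefore be set side by side, while the shares of 1 class in different lists also follow the length of those lists.

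Most of the open chromatin of the preadipocyte was still listed on day 6. Of the 9989 day 0 peaks, 7156 overlapped a day 6 peak (71.6%, interval 70.7 to 72.5). Of the 11936 day 6 peaks, 7238 overlapped a day 0 peak (60.6%, interval 59.8 to 61.5). Shortening the day 6 list by width to the day 0 length left 3376 day 6 only and 3413 day 0 only regions. Because nearly all shared regions pair 1 peak with 1 peak, lists of equal length must leave near-equal unshared numbers. The excess of day 6 only over day 0 only regions thus follows the list lengths, and this alternative cannot check it. Among the 7130 shared regions, 7010 paired 1 day 0 peak with 1 day 6 peak, and 120 joined more than 1 peak of a day. The shared peaks lay almost on top of each other: the median overlap of the 7264 overlapping pairs was 502 bp, and the median distance between their centres was 34 bp. In 4881 pairs the day 0 peak was the wider (67.2%), and in 2358 the day 6 peak was.

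Few peaks lay near the limit of overlap. The smallest overlap was 4 bp, and 27 pairs overlapped by less than 50 bp. Just outside the limit, 19 of the unshared day 0 peaks had a day 6 peak within 100 bp and 114 had one within 500 bp. The corresponding numbers for unshared day 6 peaks were 41 and 192.

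Wide peaks were shared far more often than narrow ones. The median width was 635 bp for shared regions, 496 bp for day 0 only regions and 407 bp for day 6 only regions. A shared region spans the merged peaks of both days, which adds to its width. Counted by single peaks, the median was 599 bp for shared day 0 peaks against 496 bp for unshared ones. For day 6 peaks it was 541 bp against 407 bp. When day 0 peaks were ranked by width into 5 equal groups, the share found on day 6 went from 46.7% in the narrowest group through 65.5%, 73.6% and 81.1% to 91.2% in the widest. For day 6 peaks found on day 0 the same series was 32.5%, 43.5%, 56.5%, 79.4% and 91.3%. The day 6 list also reached shorter peaks: 914 of its peaks (7.66%) were below 251 bp, the shortest width in the day 0 list. Of the 4698 day 6 only regions, 649 (13.8%) were of that kind. The DHS-seq lists of day 1 and day 6 held peaks down to 150 bp, whereas the other DHS-seq lists began at 251 bp. Calling settings may therefore have differed between lists, which bears on comparisons that use day 1 or day 6. Width and class thus moved together, and the part that peak calling had in this was not tested.

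The widest regions of each class were picked by width, so their widths add nothing to this contrast. The 3 widest shared regions spanned 6129 bp (chromosome 17, 39979706 to 39985834), 4738 bp (chromosome 7, 38972666 to 38977403) and 4011 bp (chromosome 10, 118051277 to 118055287), each listed at all 6 times. None of the 3 carried RNA Pol II, GR, Stat5a or RXR. In the whole shared class, 70.0% of regions carried RNA Pol II of day 0 or 4 hours, and 7.99% carried GR, Stat5a or RXR. The widest peak of every DHS-seq list was of similar size, from 5962 to 6129 bp. Repeats and read mapping were not checked here, so mapping artefacts at such wide regions could not be told apart from open chromatin. The widest day 0 only region spanned 1836 bp on chromosome 17 (87573136 to 87574971), was listed through day 1 and carried C/EBPbeta in all 4 of its lists and C/EBPdelta in both. The widest day 6 only region spanned 1684 bp on chromosome 19 (23209186 to 23210869), was listed at all 4 times between and carried 9 of the 13 ChIP-seq lists, PPARgamma of day 6 and C/EBPbeta of all 4 times among them.

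Regions shared by the endpoints were nearly all listed at 4 hours, day 1 and day 2, but less often at 2 hours. Regions of either endpoint alone were listed less often than these at each time between. The shared class was listed in 98.6% of cases at 4 hours, 99.3% on day 1 and 95.7% on day 2. In the 6 merged lists as a whole, a region was listed in 66.8%, 73.3% and 52.7% of cases at those times. Of the merged regions, 32525 are included only because a list between held them. Their shares in the lists between are therefore no neutral background for the endpoint classes. At 2 hours, 59.2% of the shared regions were listed (interval 58.0 to 60.3), against 19.0% of all regions. All 4 lists between held 4105 of the 7130 shared regions (57.6%), and a further 2659 were missing from the 2 hours list alone. Only 18 shared regions (0.252%) were in none of the 4 lists between.

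Day 0 only regions remained listed well into the course. Of these 2833 regions, 39.8% were listed at 2 hours, 81.7% at 4 hours, 84.8% on day 1 and 53.1% on day 2. They were thus above the merged lists at 2 hours, 4 hours and day 1, and on day 2 within 1 point of them, with the limit given above. For 1503 of them day 2 was the last list that held them, for 928 it was day 1, for 147 it was 4 hours and for 33 it was 2 hours. The remaining 222 (7.84%) were in none of the lists between.

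Day 6 only regions were listed less often than those of the merged lists at 2 hours and more often at the later times between. The merged lists are no neutral background here, as stated above. Of these 4698 regions, 12.3% were listed at 2 hours, 70.6% at 4 hours, 81.2% on day 1 and 73.9% on day 2, beside 19.0%, 66.8%, 73.3% and 52.7% of all regions. At 4 hours, day 1 and day 2 alike, 2742 were listed (58.4%). The earliest list that held them was 2 hours for 580, 4 hours for 2743, day 1 for 607 and day 2 for 294, while 474 (10.1%) were listed on day 6 for the first time. Against day 0 only regions they were listed less often at 2 hours, by 27.5 points (the difference in share was -27.5 points, interval -29.5 to -25.4), and more often on day 2, by 20.8 points (interval 18.6 to 23.1; 12.5 with every DHS-seq list shortened to its 9055 widest peaks). The difference on day 1 was small, -3.60 points (interval -5.33 to -1.87), and its sign turned when only the wider 50% of every list was used, to 0.941 points.

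The 2 hours list separated the classes most strongly in relative terms. Day 0 only regions were listed there 3.23 times as often as day 6 only regions. All 4 lists between held 754 day 0 only regions (26.6%) and 536 day 6 only regions (11.4%), a difference of -15.2 points. With every DHS-seq list shortened to its 9055 widest peaks the difference was -4.31 points.

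**Figure D1:**
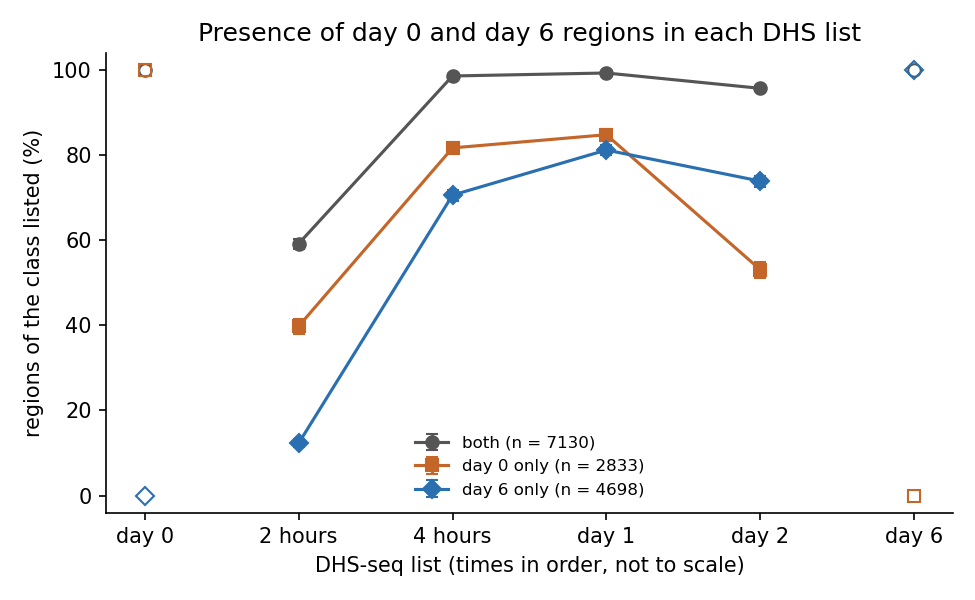
Share of regions (y axis, %) of each endpoint class found in each DHS-seq list (x axis, sampled times in order), with exact 95% intervals for counting over regions. Day 0 and day 6 are fixed at 0 or 100% by the choice of the classes. The shared class stands above both others at every time between, and the day 6 only class passes the day 0 only class on day 2 (73.9% against 53.1%).

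Among the 13 ChIP-seq lists, PPARgamma of day 6 showed the largest relative contrast between the single-endpoint classes. Of the day 6 only regions, 1189 carried a PPARgamma peak of day 6 (25.3%, interval 24.1 to 26.6). The share was 7.81% in the shared class and 2.47% in the day 0 only class, with 7.73% over all regions of the 6 merged lists. Day 6 only regions thus carried it 10.2 times as often as day 0 only regions, a difference of 22.8 points (interval 21.5 to 24.2). The difference kept its direction in each alternative run. It was smallest, 13.7 points, with the wider 50% of every list, and 14.0 points with each ChIP-seq list shortened to its 2076 widest peaks.

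PPARgamma of day 2 showed the same order at lower levels. It lay at 13.1% of day 6 only regions, 4.22% of shared regions and 2.01% of day 0 only regions, with 5.32% over all regions. The day 2 list had 3168 peaks and the day 6 list 5493. Within the day 6 only class, 568 regions carried PPARgamma on both days, 621 on day 6 and not on day 2, and 49 on day 2 and not on day 6. Day 0 only regions carried it on both days in 25 cases, on day 6 alone in 45 and on day 2 alone in 32. In the day 6 only class, regions with PPARgamma on day 6 alone thus far outnumbered those with it on day 2 alone, in lists whose lengths also differ.

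Seen from the PPARgamma peaks themselves, most were outside both endpoint lists. Of the 5493 peaks of day 6, 21.1% lay at day 6 only regions, 10.2% at shared regions, 1.24% at day 0 only regions and 68.0% at no region of either list. PPARgamma peaks sat closer to the middle of day 6 only peaks than of shared peaks. Distances were taken from the centre of each day 6 DHS-seq peak to the nearest centre of a PPARgamma peak overlapping it. The median distance was 92 bp in the day 6 only class, with 54.3% of 1189 DHS-seq peaks within 100 bp. In the shared class it was 135 bp, with 41.4% of 555 within 100 bp. In the day 0 DHS-seq list the factors differed in this. C/EBPbeta peaks of day 0 had a median distance of 72 bp in day 0 only peaks and 97.5 bp in shared ones, RNA Pol II peaks of day 0 had 146.8 and 143.8 bp, and PPARgamma peaks of day 6 had 185 and 154.5 bp. Shared day 6 peaks were also wider, with a median of 541 bp against 407 bp, and what width adds to the distance was not tested.

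**Figure D2:**
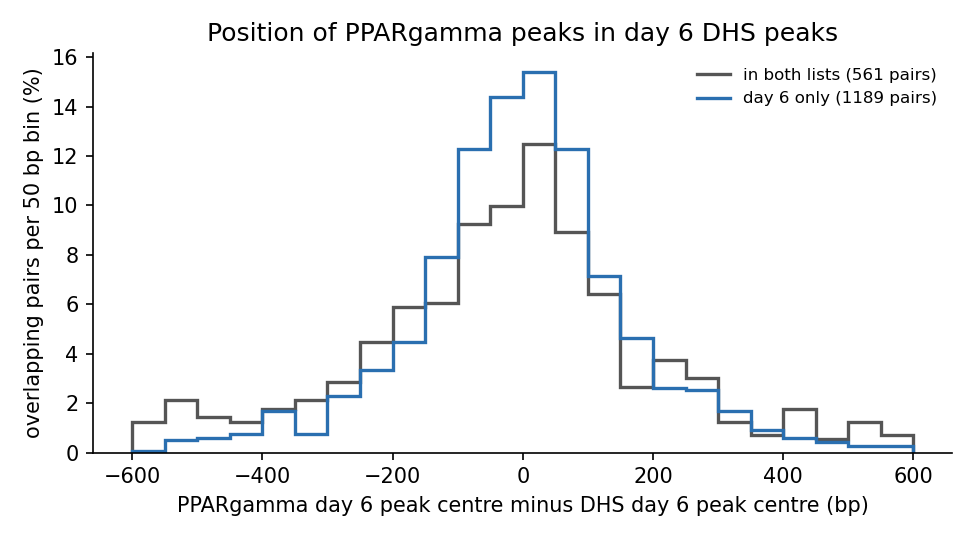
Distance of PPARgamma day 6 peak centres from the centres of the day 6 DHS-seq peaks they overlap (x axis, bp), as the share of overlapping pairs in 50 bp bins (y axis, %), for 1189 pairs at day 6 only and 561 at shared regions. Pairs of the day 6 only class crowd closer to 0. Counted once for each DHS-seq peak, to the nearest PPARgamma centre, the median distance was 92 bp against 135 bp.

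C/EBPbeta showed the reverse order before induction. Its day 0 peaks lay at 1296 of the 2833 day 0 only regions (45.7%, interval 43.9 to 47.6), at 26.4% of shared regions and at 23.1% of day 6 only regions, beside 26.3% over all regions. The difference between the 2 single-endpoint classes was -22.7 points (interval -24.9 to -20.5), and -8.77 points with the shortened ChIP-seq lists. Among regions without RNA Pol II of day 0 or 4 hours, the shared class was close to the day 0 only class. C/EBPbeta of day 0 lay there at 49.6% of day 0 only, 45.4% of shared and 29.6% of day 6 only regions. C/EBPdelta of day 0, a list of 2581 peaks, lay at 10.9% of day 0 only regions, 9.94% of shared regions and 3.07% of day 6 only regions, beside 4.58% over all regions. It was thus 3.56 times as frequent at day 0 only as at day 6 only regions, while its share in the shared class was near that of the day 0 only class.

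During induction the C/EBPbeta gap was smaller than on day 0, at -9.04 points at 2 hours and -12.4 at 4 hours, and on day 2 its sign was the opposite. At 2 hours C/EBPbeta lay at 31.6% of day 0 only, 20.7% of shared and 22.6% of day 6 only regions (26.9% over all regions). At 4 hours the shares were 40.1%, 25.8% and 27.7% (37.4% over all regions). On day 2 they were 19.4%, 16.5% and 26.4% (25.5% over all regions), so that day 6 only regions led day 0 only regions by 7.04 points (interval 5.11 to 8.96). That lead was 0.428 points with the wider 50% of every list. Among regions without RNA Pol II of day 0 or 4 hours, the shared class stood above the day 0 only class on day 2. The day 2 shares there were 21.0% of day 0 only, 31.0% of shared and 36.7% of day 6 only regions. The 4 hours difference was -2.06 points with the shortened ChIP-seq lists and -8.01 with all peaks set to 200 bp.

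The day 0 and day 2 lists of C/EBPbeta were of similar length, 20471 and 21486 peaks, and can be compared within a class. Day 0 only regions had 761 (26.9%) with C/EBPbeta on day 0 and not on day 2, and 14 (0.494%) with the opposite pattern. Shared regions had 767 (10.8%) and 65 (0.912%). Day 6 only regions had 226 (4.81%) and 384 (8.17%), the 1 class of the 3 in which regions bound on day 2 alone of the pair outnumbered those bound on day 0 alone. With the wider 50% of every list the difference between these shares in the day 6 only class was -0.197 points, against -3.36 points as reported. C/EBPbeta at all 4 times lay at 14.5% of shared, 17.8% of day 0 only and 16.3% of day 6 only regions. Regions with C/EBPbeta at none of the 4 times made up 69.4%, 48.7% and 65.2% of the classes. With each ChIP-seq list shortened to its 2076 widest peaks, the excess of day 0 over day 2 binding was 9.0 points in the day 0 only class, against 26.4 as reported, and 3.20 points in the shared class, against 9.85.

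**Figure D3:**
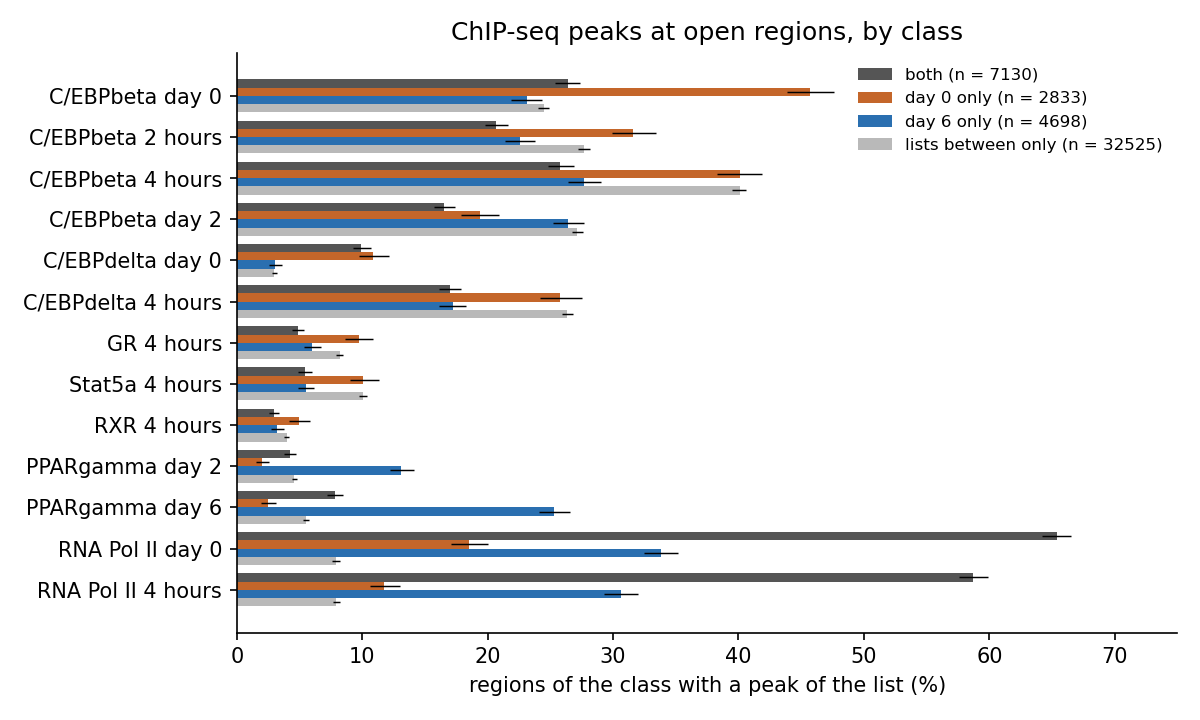
Share of regions (%) with a peak of each of the 13 ChIP-seq lists, by endpoint class and for the 32525 regions listed only between (grey), with exact 95% intervals for counting over regions. The day 6 only class stands out at PPARgamma, the day 0 only class at C/EBPbeta of day 0, and the shared class at RNA Pol II.

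C/EBPdelta, GR, Stat5a and RXR at 4 hours were each more frequent at day 0 only than at day 6 only regions. C/EBPdelta of 4 hours lay at 25.8% of day 0 only, 17.0% of shared and 17.2% of day 6 only regions (24.5% over all regions). GR lay at 9.71%, 4.87% and 6.02% (7.66% over all regions). Stat5a lay at 10.1%, 5.41% and 5.49% (9.09%), and RXR at 4.94%, 2.93% and 3.19% (3.88%). The day 6 only and shared classes were below the share over all regions for each of these 4 lists. RNA Pol II of day 0 or 4 hours lay at 70.0% of shared and 20.3% of day 0 only regions. Among regions without it, the shared class was slightly above the day 0 only class for each of the 4 lists. In shared, day 0 only and day 6 only regions of that kind, C/EBPdelta lay at 28.8%, 27.8% and 22.3%, and GR at 12.4%, 11.3% and 8.84%. Stat5a lay at 12.4%, 11.4% and 7.77%, and RXR at 7.25%, 5.85% and 4.92%. Regions listed only at the times between carried C/EBPdelta of 4 hours in 26.3% of cases, GR in 8.20% and Stat5a in 10.1%, close to the day 0 only class or below it.

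RNA Pol II was more frequent at shared regions than at those of either endpoint alone. Its day 0 peaks lay at 4660 of 7130 shared regions (65.4%, interval 64.2 to 66.5), at 33.8% of day 6 only regions and at 18.5% of day 0 only regions, beside 19.8% over all regions. At 4 hours the shares were 58.7%, 30.6% and 11.7%, beside 18.1%. Of the 14784 RNA Pol II peaks of day 0 themselves, 33.9% lay at shared regions, 10.8% at day 6 only regions, 3.54% at day 0 only regions and 52.4% at no region of either list. Regions to be listed on day 6 alone thus carried RNA Pol II of day 0 more often than regions listed as open on day 0 alone, by 15.3 points (interval 13.4 to 17.3). With each ChIP-seq list shortened to its 2076 widest peaks, the length of the RXR list, this difference was 0.793 points with an interval from -0.287 to 1.87.

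RNA Pol II and PPARgamma marked largely separate sets of day 6 only regions. PPARgamma of day 6 without RNA Pol II of day 0 or 4 hours was found at 1070 regions (22.8%), RNA Pol II without PPARgamma at 1672 (35.6%), both at 119 (2.53%) and neither at 1837 (39.1%). Their median widths were 433, 426, 469 and 377 bp.

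The regions with RNA Pol II were listed more often at 4 hours and on day 1 than those with PPARgamma. At 4 hours, 92.6% of the regions with RNA Pol II and no PPARgamma were listed, against 43.3% of those with PPARgamma and no RNA Pol II. On day 1 the shares were 96.8% and 63.5%, and on day 2 they were 81.2% and 82.6%. At 2 hours the order was the opposite, with 7.42% and 15.0%. When every DHS-seq list was shortened to its 9055 widest peaks, the 4 hours shares were 40.5% and 12.6%. Regions with both were listed in 93.3% of cases at 4 hours and 95.8% on day 2, and regions with neither in 65.1% and 60.7%. The 2 main groups also differed in C/EBPbeta, whose day 2 peaks lay at 58.6% of the PPARgamma group and 7.36% of the RNA Pol II group, and whose day 0 peaks lay at 36.8% and 10.3%.

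**Figure D4:**
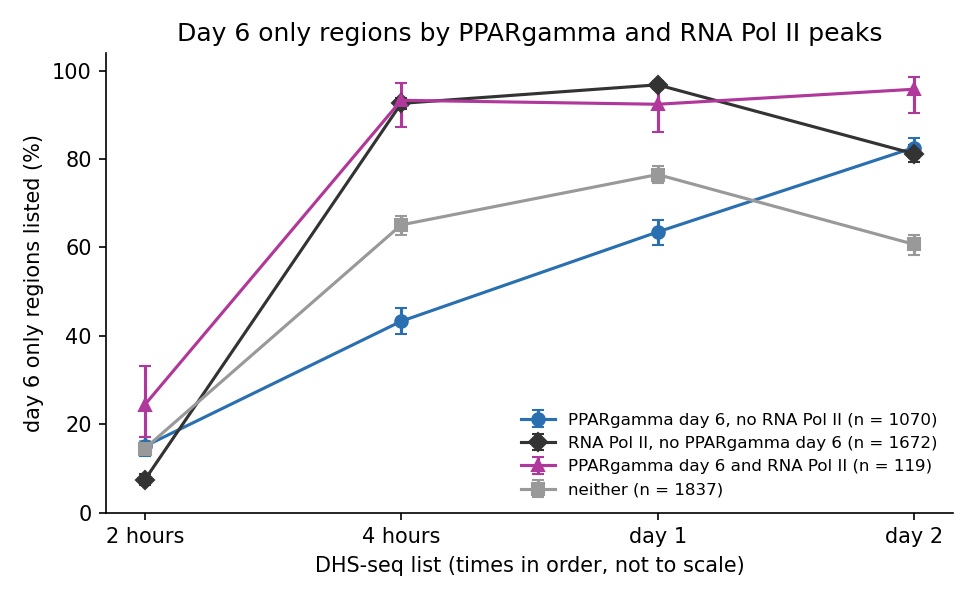
Share of day 6 only regions listed in the 4 DHS-seq lists between (y axis, %), split by PPARgamma of day 6 and RNA Pol II of day 0 or 4 hours, with exact 95% intervals for counting over regions. The 1672 regions with RNA Pol II and no PPARgamma were mostly listed by 4 hours. The 1070 with PPARgamma and no RNA Pol II of day 0 or 4 hours were listed more often at each later time, up to 82.6% on day 2.

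The factors found at a day 6 only region differed with the time at which it was first listed. The 580 regions first listed at 2 hours held the early factors: 76.7% had C/EBPbeta of 4 hours, 34.1% GR, 29.3% Stat5a and 17.2% RXR. PPARgamma of day 6 lay at 32.6% of them. The early factors were also frequent at day 0 only regions listed at 2 hours, with C/EBPbeta of 4 hours at 67.4% and GR at 21.2%. Day 0 only regions first listed between at 4 hours had 26.1% and 2.74%. The 2743 day 6 only regions first listed at 4 hours were the group with most RNA Pol II of day 0, at 49.7%. They had the lowest PPARgamma share, 14.1%, and GR lay at 2.73%.

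Day 6 only regions first listed on day 1 or day 2 carried PPARgamma more often than those first listed at 4 hours, and RNA Pol II less often. PPARgamma of day 6 lay at 37.9% of the 607 regions first listed on day 1 and at 77.2% of the 294 first listed on day 2. PPARgamma of day 2 lay at 23.6% and 43.2%, and C/EBPbeta of day 2 at 30.1% and 43.2%. RNA Pol II of day 0 lay at 79 of the 607 regions, and at 1.70% of those first listed on day 2. The 474 regions first listed on day 6 had PPARgamma of day 6 in 32.9% of cases, PPARgamma of day 2 in 3.59% and C/EBPbeta of day 2 in 7.59%. None of the 474 carried GR or RXR. Taking 3 counts as the limit that a count of 0 allows, the share could be up to 0.633%, and the exact interval reaches 0.775%.

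**Figure D5:**
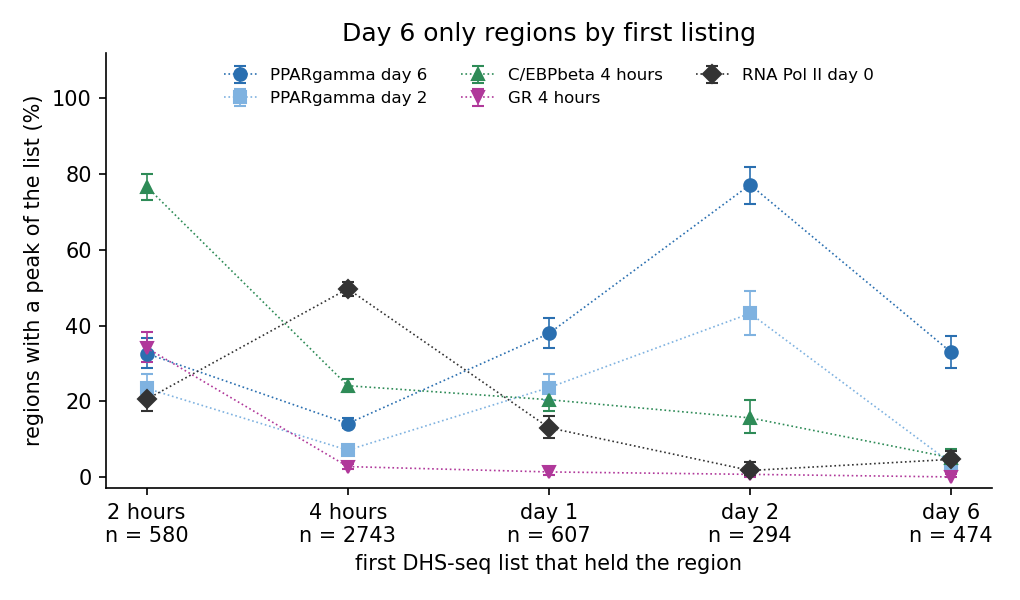
Share of day 6 only regions with a peak of the named ChIP-seq list (y axis, %), by the first DHS-seq list that held the region (x axis), with exact 95% intervals for counting over regions. PPARgamma of day 6 peaks at 77.2% for regions first listed on day 2, and RNA Pol II of day 0 at 49.7% for those first listed at 4 hours.

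Among day 0 only regions, those last listed on day 2 carried C/EBPbeta of day 0 most often. C/EBPbeta of day 0 lay at 56.3% of the 1503 regions last listed on day 2, at 38.3% of the 928 last listed on day 1, at 29.9% of the 147 last listed at 4 hours and at 21.2% of the 222 in none of the lists between. Of the 33 last listed at 2 hours, 12.1% had it. C/EBPbeta of day 2 lay at 32.1% of regions last listed on day 2, 6.36% of those last listed on day 1 and 2.04% of those last listed at 4 hours. GR of 4 hours lay at 15.6%, 3.99% and 2.04% of the same groups. RNA Pol II of day 0 lay at 23.4%, 15.5% and 10.2%, and median widths were 510, 493 and 484 bp.

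Split by C/EBPbeta of day 0 directly, the 1296 day 0 only regions that carried it were listed at 2 hours in 56.9% of cases, against 25.4% of the 1537 that did not. The shares were 88.0% and 76.3% at 4 hours, 92.1% and 78.6% on day 1, and 65.3% and 42.7% on day 2. Regions with C/EBPbeta were therefore listed more often at each time between. They were also wider, with a median of 531.5 bp against 468 bp, and the part of width in this was not tested. GR lay at 19.0% of those with C/EBPbeta and 1.89% of those without, whereas RNA Pol II of day 0 lay at 12.6% and 23.5%. The gap in listing was not particular to the day 0 only class. Day 6 only regions with and without C/EBPbeta of day 0 were listed at 2 hours in 32.6% and 6.28% of cases. On day 2 their shares were 88.8% and 69.4%. Shared regions with and without it were listed at 2 hours in 77.0% and 52.8% of cases.

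Single regions show how far the lists could pile up in each class. Of the shared regions, the 2 at chromosome 6, 52110548 to 52111421 and 138089500 to 138090311, carried all 13 ChIP-seq lists and were open at all 6 times. Among day 0 only regions the highest number was 11 lists, reached at chromosome 5 (91248750 to 91249286), chromosome 14 (23959564 to 23960070) and chromosome 6 (34293373 to 34293814). All 3 lacked RNA Pol II alone, were listed at all 4 times between and carried PPARgamma of day 6 although they were not in the day 6 DHS-seq list. Among day 6 only regions 1 carried all 13 lists, a 976 bp region at chromosome 2 (46298014 to 46298989). The next 4 carried 11 lists, each with PPARgamma of day 6, and 2 of these lacked RNA Pol II (chromosome 19, 8918849 to 8919355, and chromosome 5, 91465611 to 91466103).

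Some neighbouring regions belonged to the same class. Runs were formed from consecutive regions of 1 class with gaps of at most 50 kb. Runs of 3 or more regions held 241 day 0 only regions (8.51% of the class) and 558 day 6 only regions (11.9%). Most regions of either class thus lay outside such runs, and the runs named here were picked as those with most regions. The day 0 only class made up 19.3% of all 14661 regions and the day 6 only class 32.0%. A larger class forms more runs in any order. What class size alone would give was not computed, so the shares in runs show no clustering by themselves. The run with most day 0 only regions held 8 regions within 13.7 kb of chromosome 10 (117214931 to 117228603). Of the 8, 6 were listed at 2 hours, 1 at 4 hours and none on day 1 or day 2, and 2 carried C/EBPbeta of day 0. The next runs held 7 regions on chromosome 2 (77752325 to 77783177) and 5 on chromosome 3 (151572368 to 151669009). In the run on chromosome 3, all 5 regions were still listed on day 2 and 3 carried C/EBPbeta of day 0.

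The 3 day 6 only runs with most regions spanned 67.4 to 209.6 kb, and the 3 such day 0 only runs 13.7 to 96.6 kb. One day 6 only run held 8 regions over 209.6 kb of chromosome 1 (58642905 to 58852528), of which 6 were listed at 4 hours, 4 carried RNA Pol II and 2 PPARgamma of day 6. Another held 7 regions over 67.4 kb of chromosome 19 (44481739 to 44549116), of which 6 carried PPARgamma of day 6 and 1 carried PPARgamma of day 2. The third of these runs held 7 regions over 119.9 kb of chromosome 12 (56499514 to 56619375), with RNA Pol II at 2 and PPARgamma of day 6 at 1. The runs thus differed among themselves in which factor they carried.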

How the data were processed

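Positions are those the authors deposited: 1 list of peaks for each of 6 DHS-seq and 13 ChIP-seq samples, with chromosome, start and end in base pairs and no score. The build is mm9, per the submitters' processing notes. The aligner, peak caller and threshold are not given in the sources used here. The remaining sample, an input control, was not analysed here. No mm9 genome or gene annotation was used here, so regions are given by position and without gene names or sequences. Positions are counted from 1.

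Day 0 and day 6 peaks that overlapped by at least 1 bp were merged, and each region was scored as overlapped or not by every other list. The same was done for all 6 DHS-seq lists merged. The named regions are, for each class, the 5 with most ChIP-seq lists and the 3 widest, and the 3 runs with most regions for each single-endpoint class. For each class the text gives some of these. The classes, lists and rules were chosen with earlier results of these data known. The steps were tested on simulated data, in which all planted classes were returned. The alternatives changed the overlap rule, peak width, list length and the regions used. Calculations used Python 3.11.15, NumPy 2.4.6, pandas 2.3.3, SciPy 1.17.1 and Matplotlib 3.10.9.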

Additional observations from a re-analysis of the deposited data

How the results depend on the processing

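The 29 results were recomputed under those of 9 alternatives, and of 2 more chosen after seeing the data, that applied to each, giving 289 values. Of these, 189 were labelled unchanged, 99 moved and 1 reversed. Shares and differences were labelled unchanged when they stayed within the counting interval of the reported value. Counts of regions have no such interval and were labelled unchanged when they stayed within a fixed ratio of the reported count. Of 224 differences, 223 kept their sign; the cause of each move was not tested. Below, "day 0 share" is the share of day 0 peaks found on day 6, "day 6 share" that of day 6 peaks found on day 0, in %, and differences are day 6 only minus day 0 only regions in points.

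As reported, these were 71.6% and 60.6%, with differences of -15.2 for all 4 lists between, -12.4 for C/EBPbeta of 4 hours, 22.8 for PPARgamma of day 6 and 15.3 for RNA Pol II of day 0. With gaps of up to 500 bp the shares were 72.8% and 62.2%. With peaks set to 200 bp they were 69.4% and 58.2%, and the differences were -11.9, -8.01, 17.6 and 12.9 in the same order. With the wider 50% of each list, the counts were 3404 shared, 1611 day 0 only and 2538 day 6 only regions, the shares 67.9% and 57.5%, PPARgamma 13.7, RNA Pol II 24.2 and the day 1 DHS-seq difference turned to 0.941. With DHS-seq lists at 9055 peaks, 3009 regions were day 6 only, the shares were 66.4% and 66.8%, and all 4 lists between gave -4.31. Without day 6 peaks below 251 bp the shares were 69.3% and 63.3%. With ChIP-seq lists at 2076 peaks, C/EBPbeta gave -2.06, PPARgamma 14.0 and RNA Pol II 0.793. In regions of middle width (467 to 609 bp), PPARgamma gave 28.3 and RNA Pol II 21.8. In the added alternatives, shortening the day 6 list to the day 0 length gave shares of 65.8% and 66.2%, and PPARgamma 24.3. It left 3413 day 0 only against 3376 day 6 only regions, numbers that equal list lengths bring close in any case. Using regions without RNA Pol II gave C/EBPbeta -7.27 and PPARgamma 34.3.

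No paired analysis was possible because each group has 1 library and the labels carry no replicate numbers. The lists give no depth, so a region absent from a list is only unlisted, not shown to be closed.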

Other observations

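The X chromosome had the highest share of day 6 only regions among those listed at a single endpoint. Of its 154 such regions, 126 were day 6 only and 28 day 0 only (81.8%, exact 95% interval 74.8 to 87.6). On the autosomes together the share was 62.0% (interval 60.9 to 63.1), with a range from 55.6% on chromosome 8 to 67.1% on chromosome 3. The day 6 only regions of the X chromosome carried RNA Pol II of day 0 in 53.2% of cases and PPARgamma of day 6 in 8.73%. On the autosomes the shares were 33.3% and 25.8%. The shared class differed in the same direction, and the day 0 only class did for RNA Pol II. RNA Pol II of day 0 lay at 35.7% of the 28 day 0 only regions of the X chromosome against 18.3% on the autosomes, and at 72.6% of its 168 shared regions against 65.2%. PPARgamma of day 6 lay at 2.98% of those shared regions against 7.93%, and at none of the 28 day 0 only regions, which allows up to 10.7% (3 counts), against 2.50%, a difference not detectable with this number of regions. Of all RNA Pol II peaks of day 0, 5.23% were on the X chromosome, against 2.46% of the day 6 DHS-seq peaks. No replicate check was possible for this pattern, which was noticed after the data were seen, and its cause was not tested.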
